A study of Mus musculus with 30 samples.

Results

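The blood vessels of the spinal cord were followed through 10 genes, 7 that mark endothelial cells (Cldn5, Pecam1, Cdh5, Flt1, Kdr, Tek and Slc2a1) and 3 that mark pericytes (Pdgfrb, Rgs5 and Abcc9). The genes were chosen by name, and all 10 were found among the 16995 genes with values. The tissue was the intermediate laminae of spinal levels C5/C6 on the side that a cortical stroke had deprived of its corticospinal input. Adult female C57BL/6 mice (substrain C57BL/6J in the study's methods) had received a photothrombotic stroke of the right sensorimotor cortex (Rose Bengal and illumination of the skull) and were taken at 4, 7, 14, 28 or 42 days post injury (dpi), and sham-operated mice had received no illumination. The sequenced animals had been selected from more operated mice by scores for the lesion, the motor deficit, the dissected tissue and the RNA. Every group held 5 animals except 4 dpi with 4, so 29 of the 30 labelled animals were used, and 1 animal labelled 4 dpi has no column of values. The study left a 4 dpi sample out as an outlier in its expression testing, so the spread of the 4 dpi group follows a selection on expression. The lesion lies in the brain, and the vessels studied here lie far from it. Each value is an edgeR-normalised read abundance rounded to 0.1, called the normalised value below, and the sum of these values over all genes ran from 714597 to 2256910 between animals.

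In none of the 7 comparisons did any of the 10 genes pass both limits used here for a call, a difference of more than 1.5-fold together with an adjusted p below 0.05. Between 14 and 28 dpi Abcc9, Flt1, Kdr and Cdh5 were each higher at 28 dpi by less than 1.5-fold with an adjusted p under 0.05, as were 21% of all genes when the fold limit was left out. Against sham, Cdh5 and Flt1 were higher at 28 dpi by the same criterion, as were 11.9% of all genes. All of these differences were found on the deposited scale, and they did not reach an adjusted p of 0.05 once all animals were scaled to a common total. On that scale 6 of the 10 genes were instead called lower at 28 dpi than in sham, when 65.2% of all genes were called.

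Endothelial cells line the vessels, and in the brain and spinal cord they are joined by tight junctions that close the paracellular path between blood and tissue. Pericytes sit on the outside of capillaries within the same basement membrane and are recruited by platelet-derived growth factor from the endothelium. Vascular endothelial growth factor (VEGF) acts on endothelial cells through Kdr and is bound and held back by Flt1, while angiopoietins act through Tek.

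The sequences just upstream of the start sites are shown for 4 of the genes, because Flt1 and Kdr are the VEGF receptors that differed between groups, and Cldn5 and Rgs5 were the most and the least variable of the 10. RefSeq promoter windows (GRCm38.p6) were at hand for 7 of the 10 genes, and the 250 bases before the start site were searched on both strands for 3 short motifs. These were the ETS motif, AGGAAG and its variant CGGAAG, the GATA motif, AGATAA, and the SOX motif, ACAATG. Each sequence is written 5′ to 3′ on the strand of its gene, with matches in capitals.
Flt1, chr5:147726012-147726261, minus strand: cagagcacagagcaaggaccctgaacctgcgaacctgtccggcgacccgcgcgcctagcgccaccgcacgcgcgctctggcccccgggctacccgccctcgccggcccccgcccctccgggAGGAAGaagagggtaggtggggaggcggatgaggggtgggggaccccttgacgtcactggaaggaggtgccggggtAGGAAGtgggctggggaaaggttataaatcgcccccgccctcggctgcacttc
Kdr, chr5:75978456-75978705, minus strand: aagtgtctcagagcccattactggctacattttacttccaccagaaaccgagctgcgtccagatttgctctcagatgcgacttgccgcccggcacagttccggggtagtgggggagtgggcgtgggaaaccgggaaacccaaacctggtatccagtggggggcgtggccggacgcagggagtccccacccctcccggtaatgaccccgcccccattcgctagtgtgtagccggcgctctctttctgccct
Cldn5, chr16:18776597-18776846, plus strand: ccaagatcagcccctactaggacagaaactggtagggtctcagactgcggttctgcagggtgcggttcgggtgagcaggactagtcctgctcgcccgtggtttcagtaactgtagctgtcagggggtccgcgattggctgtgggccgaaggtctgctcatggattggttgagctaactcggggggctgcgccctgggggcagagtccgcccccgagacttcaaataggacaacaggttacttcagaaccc
Rgs5, chr1:169655251-169655500, plus strand: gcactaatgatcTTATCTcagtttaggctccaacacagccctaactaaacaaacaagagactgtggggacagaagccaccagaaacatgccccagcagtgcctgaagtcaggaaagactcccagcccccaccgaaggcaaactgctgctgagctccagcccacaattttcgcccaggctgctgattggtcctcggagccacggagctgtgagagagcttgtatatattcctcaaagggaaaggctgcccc
The Flt1 window held 2 matches to the ETS motif, which began at positions -129 and -53 relative to the start site. The Rgs5 window held 1 match to the GATA motif, on the opposite strand at position -238. Thus 1 of 7 windows held an ETS match, 1 of 7 a GATA match and 0 of 7 a SOX match. Of 27025 promoters of the same length, 39% held an ETS match, 10.3% a GATA match and 11% a SOX match. The GC content was 70.4% for Flt1 and 61.6% for Kdr against a median of 52% over all promoters. These letters are a description of the windows and say nothing of which factors were bound.

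In sham animals the 10 genes covered a wide range of levels. Per kilobase of principal transcript, the mean sham level was highest for Rgs5 at 21.9 ± 1.61 (SD) and next for Slc2a1 at 16.4 ± 1.995. Cldn5 followed at 8.97 ± 3.56, Flt1 at 6.06 ± 0.812 and Pecam1 at 4.55 ± 0.492. The angiopoietin receptor Tek (2.48 ± 0.310) and the VEGF receptor Kdr (2.11 ± 0.432) were lower, and Abcc9 (1.75 ± 0.278), Pdgfrb (1.71 ± 0.275) and Cdh5 (1.29 ± 0.138) were the lowest. Neighbours in that order whose means differed by less than the larger of their SDs were Cldn5 and Flt1, Tek and Kdr, Kdr and Abcc9, and Abcc9 and Pdgfrb. No member was listed at 0 in any animal, so the defining markers of both cell types were present in all 29 samples. Because whole tissue was sequenced, fewer vascular cells and less RNA per vascular cell cannot be told apart in any value given here.

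**Figure D1:**
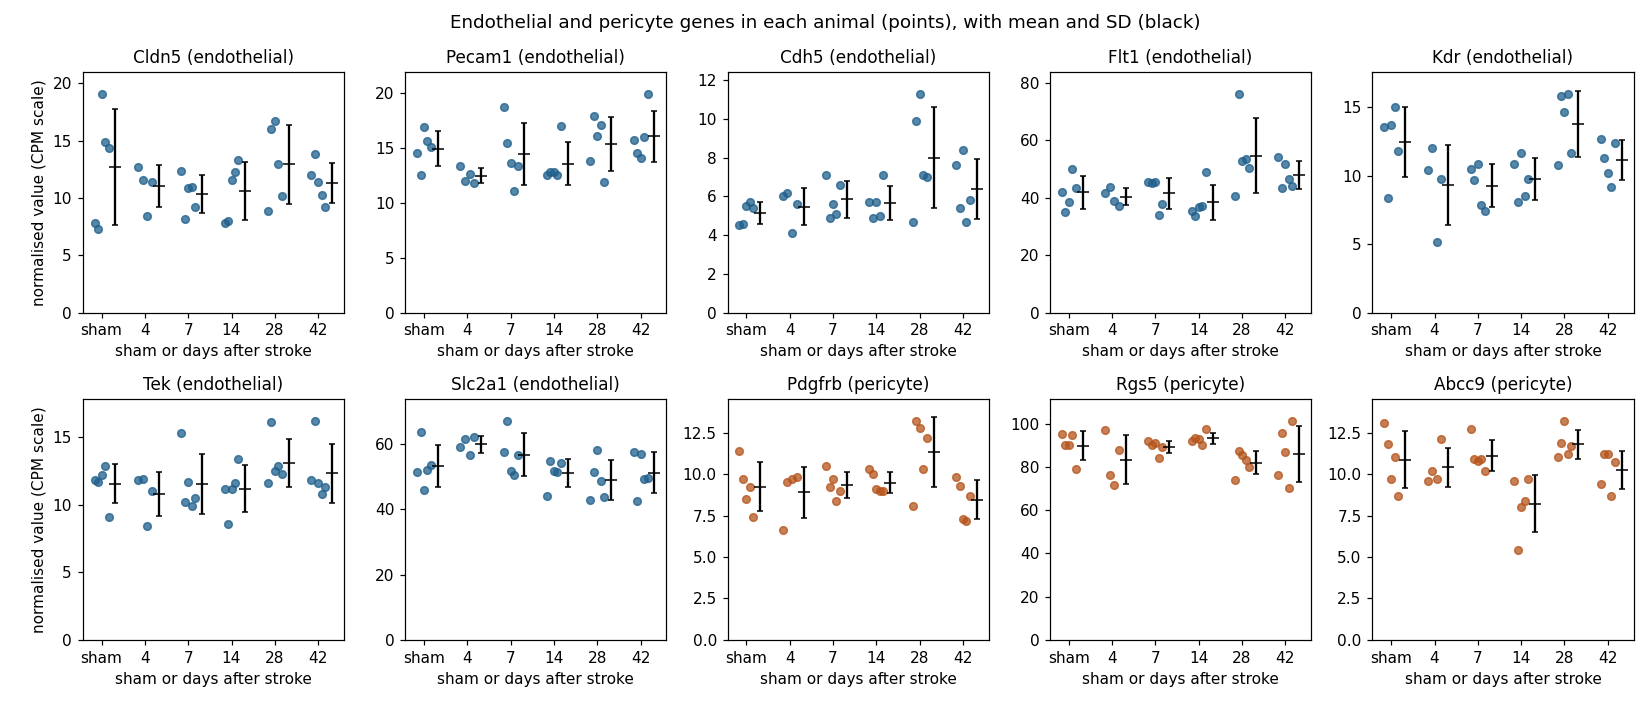
Normalised value (vertical axis) of each endothelial (blue) and pericyte (brown) gene in every animal, by group (horizontal axis, sham and days after stroke), with the group mean and SD in black. Every stroke group overlapped the sham group for all 10 genes. The 28 dpi group has the highest mean for Cldn5, Cdh5, Flt1, Kdr, Tek, Pdgfrb and Abcc9.

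The junction and adhesion genes were examined first. Cldn5 (chr16:18776847-18778260, mm10, a gene of 1 exon) encodes claudin-5, the main claudin of the endothelial tight junction. Its normalised value in sham animals was 7.8, 7.3, 19.1, 14.9 and 14.4. The first pair belongs to the labelled unit A11 and the other 3 to unit A12, and the units did not overlap. In sham these units were also separate for Pecam1 and Cdh5 (A11 lower) and for Pdgfrb and Abcc9 (A11 higher). They overlapped for Flt1, Kdr, Tek, Slc2a1 and Rgs5. At 28 dpi Cldn5 was 8.9, 16, 16.7, 13 and 10.2, all within the sham range. Its group means ran from 10.3 ± 1.65 at 7 dpi to 13.0 ± 3.44 at 28 dpi, with sham at 12.7 ± 5.05. The spread of Cldn5 within groups was 0.36 on the log2 scale, more than in 90.4% of all genes (median 0.19), so its intervals are wide. At 28 dpi the 95% interval of its fold change ran from 0.790 to 1.42.

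Pecam1 (chr11:106654217-106750628) encodes CD31, an adhesion molecule of the endothelial cell border. Its lowest mean was 12.4 ± 0.675 at 4 dpi and its highest 16.0 ± 2.30 at 42 dpi, against 14.9 ± 1.62 in sham. The log2 difference from sham at 4 dpi was -0.25, with an adjusted p of 0.978 (limma), and 2 of the 4 animals lay below the sham range. No comparison of Pecam1 reached an adjusted p under 0.05.

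Cdh5 (chr8:104101625-104144511) encodes VE-cadherin, the cadherin of endothelial adherens junctions. On the deposited scale it had the largest difference from sham of the 10 genes. The sham animals had 4.5, 4.6, 5.5, 5.7 and 5.4. At 28 dpi the values were 4.7, 9.9, 11.3, 7.1 and 7.0. Thus 4 of 5 animals at 28 dpi lay above every sham animal, and the fifth lay inside the sham range. The mean was 8.0 ± 2.61 at 28 dpi against 5.14 ± 0.551 in sham, a log2 fold change of 0.54 ± 0.17 (SE) or 1.45-fold (95% interval 1.14 to 1.85), with an adjusted p of 0.0221. At 42 dpi the mean was 6.38 ± 1.56 and the log2 difference from sham 0.26, with an adjusted p of 0.504. Leaving out the 28 dpi animal at 4.7 (A3-1) raised the difference at 28 dpi to 0.70 and put Cdh5 past both limits, while leaving out A3-3 or A4-1 raised its adjusted p to as much as 0.0813. The reads carry no strand, so reads from Cdh5 and its antisense partner Gm29682 cannot be told apart.

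Flt1 and Kdr, the receptors for VEGF, were described next. Flt1 (chr5:147561604-147726011) was 41.8, 35.1, 38.6, 50 and 43.5 in sham animals. At 14 dpi it was 35.5, 33.5, 36.9, 37.2 and 49.0, and at 28 dpi 40.6, 76.1, 52.7, 53.3 and 50.3. At 28 dpi 4 of 5 animals lay above all sham animals, and the remaining animal lay within the sham range. The mean was 54.6 ± 13.1 at 28 dpi and 41.8 ± 5.6 in sham, which is 0.36 ± 0.12 (SE) on the log2 scale or 1.29-fold (95% interval 1.08 to 1.52), with an adjusted p of 0.0289. Without the animal at 76.1 (A3-3) the difference was 0.24 with an adjusted p of 0.14, and the adjusted p also exceeded 0.05 without sham animal A11-4 or A12-1 or 28 dpi animal A4-3. At 42 dpi the mean was 47.8 ± 4.82 and its difference from sham did not pass the test (adjusted p 0.476).

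Kdr (chr5:75932827-75978458) was 13.6, 8.4, 13.7, 15 and 11.8 in sham animals. It was 10.4, 12, 5.2 and 9.8 at 4 dpi, and 10.5, 9.7, 10.9, 7.9 and 7.4 at 7 dpi. Both early groups lay low but overlapped sham. The log2 difference from sham was -0.43 at 4 dpi, -0.40 at 7 dpi and -0.32 at 14 dpi. The adjusted p was 0.789, 0.826 and 0.452 in that order, so none of these differences passed the test. Without 4 dpi animal A9-2 (5.2) the difference at 4 dpi was -0.19. At 28 dpi Kdr was 10.8, 15.8, 14.7, 16 and 11.7, with a mean of 13.8 ± 2.40 against 12.5 ± 2.56 in sham (adjusted p 0.55).

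The ratio of Flt1 to Kdr was compared because the receptors share their ligand, a choice made after their values were seen. It was 3.42 ± 0.533 in sham and 4.50 ± 0.389 at 7 dpi, and the lowest 7 dpi animal (4.16) lay just under the highest sham animal (4.18). The exact two-sided permutation test of the log2 ratio gave p = 0.0159 at 7 dpi. Over the 15 comparisons made with 3 ratios (Flt1 to Kdr, Tek to Kdr, Slc2a1 to Cldn5) the adjusted p was 0.238, and no other comparison had a smaller one, so no ratio passed the test. The smallest p that 5 against 5 animals allow is 0.00794, which a single ratio could not carry past 0.05 after adjustment over 15.

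Tek (chr4:94739289-94874976), the receptor Tie2 for angiopoietins, had means between 10.8 ± 1.63 at 4 dpi and 13.1 ± 1.75 at 28 dpi, with 11.5 ± 1.44 in sham. Its largest difference from sham was 0.17 on the log2 scale at 28 dpi (adjusted p 0.328). Slc2a1 (chr4:119108711-119137983) encodes GLUT1, the glucose transporter of the blood-brain barrier, which astrocytes also make. It ran in the other direction in time, with its highest mean at 4 dpi (59.95 ± 2.61) and its lowest at 28 dpi (48.96 ± 6.19), around 53.4 ± 6.5 in sham. The log2 difference from sham was 0.17 at 4 dpi and -0.12 at 28 dpi, with adjusted p values of 0.9998 and 0.328. Slc2a1 overlaps the antisense genes Gm12867 and Gm12868 and the microRNA gene Mir1957a, whose reads cannot be separated from it here.

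Among the pericyte genes, Abcc9 (chr6:142587862-142702315), the sulfonylurea receptor subunit of a potassium channel of mural cells, moved most on the deposited scale. It was 13.1, 11.8, 9.7, 11 and 8.7 in sham animals. At 14 dpi it was 9.6, 5.4, 8.0, 8.4 and 9.7, and at 28 dpi 11, 11.9, 13.2, 11.2 and 11.7. All 5 animals at 28 dpi lay above all 5 at 14 dpi, while both groups overlapped sham. The log2 difference from sham was -0.39 at 14 dpi (adjusted p 0.381) and 0.13 at 28 dpi (adjusted p 0.458). Without 14 dpi animal A5-3 (5.4) the difference at 14 dpi was -0.26. Abcc9 overlaps the antisense gene 5330439B14Rik, with which its reads may be shared.

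Pdgfrb (chr18:61045150-61085061) encodes the receptor for platelet-derived growth factor B and is also made by fibroblasts. It was 11.4, 9.7, 8.5, 9.2 and 7.4 in sham, 8.1, 13.2, 12.8, 10.3 and 12.2 at 28 dpi, and 9.8, 9.3, 7.3, 7.2 and 8.7 at 42 dpi. In 3 of 5 animals at 28 dpi it lay above the sham range. The mean of 11.3 ± 2.12 at 28 dpi exceeded sham by 0.27 on the log2 scale (adjusted p 0.105), and the mean of 8.46 ± 1.17 at 42 dpi lay below 28 dpi by a log2 difference of -0.39 (adjusted p 0.0798). Rgs5 (chr1:169655501-169695813), a regulator of G protein signalling and the most abundant of the 10 genes, was the steadiest on the deposited scale, with means between 82.0 ± 5.40 at 28 dpi and 93.3 ± 2.69 at 14 dpi, against 89.9 ± 6.60 in sham. Its spread within groups was 0.13 on the log2 scale. At 28 dpi its 95% interval against sham was 0.814 to 1.02.

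In the comparisons with sham, limma called 0 of the 10 genes in each of the 5 stroke groups. Of all genes it called 0.0941% at 4 dpi, 0.0294% on day 7, 0.00588% on day 14, 4.64% on day 28 and 0.0235% on day 42. At an unadjusted p under 0.05 there was 1 of 10 on day 4 (Kdr), day 7 (Kdr) and day 14 (Abcc9), 3 of 10 on day 28 (Cdh5, Flt1 and Pdgfrb) and 0 of 10 on day 42. The share of all genes under that limit was 5.14%, 5.84%, 11.6%, 38.5% and 14.8% in the same order. With an adjusted p under 0.05 and no fold limit, Cdh5 and Flt1 were the 2 of 10 at 28 dpi, both higher, when 24.9% of all genes passed, 11.9% of them higher and 13% lower. A share of 2 in 10 lies near that background.

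The 95% intervals on the deposited scale were set beside those of all genes. Over the 50 comparisons of a gene with sham, the 95% interval lay within 1.5-fold in 41 and within 2-fold in all 50. Of all comparisons of all genes with sham, 79.1% lay within 1.5-fold and 96.6% within 2-fold. The counts of the 10 genes lie near that background. These intervals hold for the deposited scale alone. With a common total Pecam1 (-0.73), Cldn5 (-0.67), Abcc9 (-0.63), Kdr (-0.61), Flt1 (-0.42) and Cdh5 (-0.18) lay outside theirs at 28 dpi. So did Slc2a1 and Rgs5, which were called lower with that total. The outermost bounds were 0.574-fold, for Kdr at 4 dpi, and 1.85-fold, for Cdh5 at 28 dpi. In 0 of the 50 comparisons did the stroke and sham animals fail to overlap. By comparison, stroke and sham animals were fully separated for 1.7% of all genes on day 4, 0.971% on day 7, 2.07% on day 14, 9.9% on day 28 and 3.31% on day 42.

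**Figure D2:**
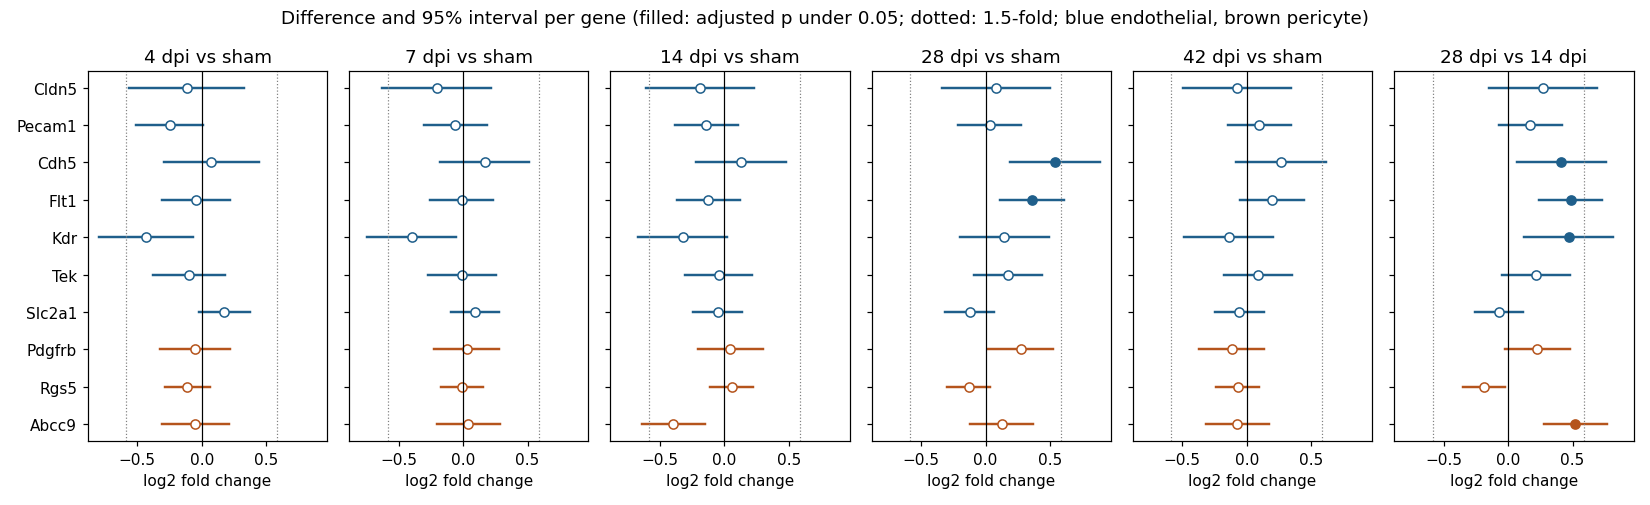
Log2 fold change (horizontal axis) with its 95% interval for each of the 10 genes (rows) in 6 comparisons, blue for endothelial and brown for pericyte genes. Filled points have an adjusted p under 0.05, which holds for Cdh5 and Flt1 in 28 dpi against sham and for Cdh5, Flt1, Kdr and Abcc9 in 28 against 14 dpi, and no point lies beyond the dotted lines at 1.5-fold.

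Between 14 and 28 dpi, 0 of 10 genes passed both limits, against 11.8% of all genes. Without the fold limit 4 of 10 passed and all 4 were higher at 28 dpi, when 43% of all genes passed, 21% higher and 21.9% lower, so this share too was close to the background. At an unadjusted p under 0.05 there were 5 of 10, against 50.7% of all genes. Abcc9 differed by 0.52 ± 0.12 (log2, SE), or 1.43-fold (95% interval 1.21 to 1.70), with an adjusted p of 0.001. Flt1 differed by 0.48 ± 0.12, or 1.40-fold (95% interval 1.18 to 1.66), with an adjusted p of 0.00198. Both stayed under 0.05 whichever animal was left out, with adjusted p values of at most 0.00504 for Abcc9 and 0.012 for Flt1.

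Kdr was higher at 28 than at 14 dpi by 0.47 ± 0.17 (adjusted p 0.0257) and Cdh5 by 0.41 ± 0.17 (adjusted p 0.0499). These rested on single animals, since leaving out 1 animal brought the adjusted p to between 0.0127 and 0.0722 for Kdr (under 0.05 in 6 of 10 fits, and above it without 14 dpi animals A5-3 or A6-2 or 28 dpi animals A3-3 or A4-3) and between 0.00449 and 0.178 for Cdh5 (under 0.05 in 2 of 10 fits, those without 14 dpi animal A6-3 or 28 dpi animal A3-1). Rgs5 went the other way, with all 5 animals at 28 dpi below all 5 at 14 dpi (73.8 to 87.6 against 90 to 97.4), a log2 difference of -0.19 with an adjusted p of 0.0605. So the groups did not overlap for 2 of the 10 genes, Abcc9 and Rgs5, in opposite directions, and for 22% of all genes. The median log2 difference over the 10 genes was 0.25, and over all genes 0.02. With a common total these medians were -0.0063 and -0.22, and with a total without Rn18s-rs5 0.086 and -0.14.

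Between 28 and 42 dpi, groups that share the labelled unit A3, 0 of 10 genes passed both limits, against 0.224% of all genes, and 1 of 10, Pdgfrb, had an unadjusted p under 0.05, as did 21.1% of all genes. The median log2 difference over the 10 genes was -0.16, and over all genes -0.01. The median of the 10 was -0.06 without 28 dpi animal A3-3 and -0.24 without A3-1, and with a common total it was 0.07, when that of all genes was 0.205. The F test over the 6 groups, which asks whether a gene differs in any group, had an adjusted p under 0.05 for 3 of 10 genes, Abcc9 (0.0173), Flt1 (0.0186) and Kdr (0.0378), and for 31.6% of all genes. Without 14 dpi animal A5-3 the value for Abcc9 was 0.0754, without 28 dpi animal A3-3 that for Flt1 was 0.059, and Kdr stayed under 0.05 in 25 of 40 alternative fits. With ribosomal RNA as a covariate Flt1 (0.106) and Kdr (0.0886) were above 0.05, as they were with all animals scaled to a common total (0.121 and 0.082) or to a total without Rn18s-rs5 (0.196 and 0.146). Without the 5 animals with the most Rn18s-rs5 Abcc9 (0.124) and Kdr (0.114) were above 0.05.

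The scale of the table bears on the differences from sham at 14, 28 and 42 dpi. With all animals scaled to a common total the median difference of the 10 genes was -0.61 at 14 dpi and -0.61 at 42 dpi. The median of all genes was then -0.48 at 14 dpi and -0.52 at 42 dpi. In both comparisons limma called 0 of the 10 genes on that scale, against 0.194% of all genes at 14 dpi and 0.824% at 42 dpi. Values of the 18S ribosomal RNA gene Rn18s-rs5 ran from 30321 to 52929 in sham, from 32754 to 817780 at 14 dpi and from 44755 to 779160 at 28 dpi, although ribosomal RNA had been depleted. With all animals scaled to a common total, the log2 difference between 28 dpi and sham had a median of -0.72 over all genes, with Cdh5 at -0.18 and Flt1 at -0.42, above that median but below sham. On that scale 6 of the 10 genes (Cldn5, Pecam1, Kdr, Slc2a1, Rgs5 and Abcc9) were called lower at 28 dpi, when 65.2% of all genes were called. When the total left out Rn18s-rs5, the median was -0.44, the values were 0.10 for Cdh5 and -0.11 for Flt1, and Slc2a1 and Rgs5 were called lower, when 30% of all genes were called. In 28 against 14 dpi the differences of Abcc9, Flt1, Kdr and Cdh5 stayed above 0 with both rescalings, between 0.17 and 0.36, with adjusted p values from 0.188 to 0.742. With ribosomal RNA as a covariate the 28 dpi difference from sham was 0.56 for Cdh5 (adjusted p 0.134) and 0.29 for Flt1 (adjusted p 0.257). In that fit limma gave 0 of 16994 genes an adjusted p under 0.05, against 24.9% of all genes without the covariate, while 22% of genes had an unadjusted p under 0.05. Without the 5 animals whose Rn18s-rs5 value exceeded 400000 the differences were 0.64 for Cdh5 (adjusted p 0.0163, past both limits) and 0.32 for Flt1 (adjusted p 0.0312). In a fit of the 28 dpi and sham groups alone the adjusted p was 0.0645 for Cdh5 and 0.0849 for Flt1. The part of ribosomal RNA in these differences was not tested.

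Within groups, the endothelial genes varied together from animal to animal. After subtracting group means, Pearson's r of the log2 values over 29 animals had a median of 0.452 over the 21 endothelial pairs, from -0.0821 to 0.632, and was above 0 in 19 of them. The highest was Cdh5 with Flt1 (0.632), then Cldn5 with Cdh5 (0.604) and Pecam1 with Flt1 (0.561). Slc2a1 stood apart, at -0.0821 with Tek, -0.042 with Cldn5 and 0.0166 with Kdr. Its r was 0.452 with Cdh5 and 0.354 with Flt1.

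The 3 pericyte pairs had r between 0.21 and 0.428, and the 21 pairs between an endothelial and a pericyte gene had a median of 0.188, from -0.0993 to 0.595, and were above 0 in 20. The highest of these were Tek with Abcc9 (0.595) and Tek with Rgs5 (0.532). The mean z-scores of the 7 endothelial and the 3 pericyte genes had r = 0.435. The animals share dissection and normalisation, so these correlations are a description. The mean endothelial score had r = 0.113 with Rn18s-rs5 and -0.385 with the summed neuron markers, and the pericyte score 0.0996 and -0.418.

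**Figure D3:**
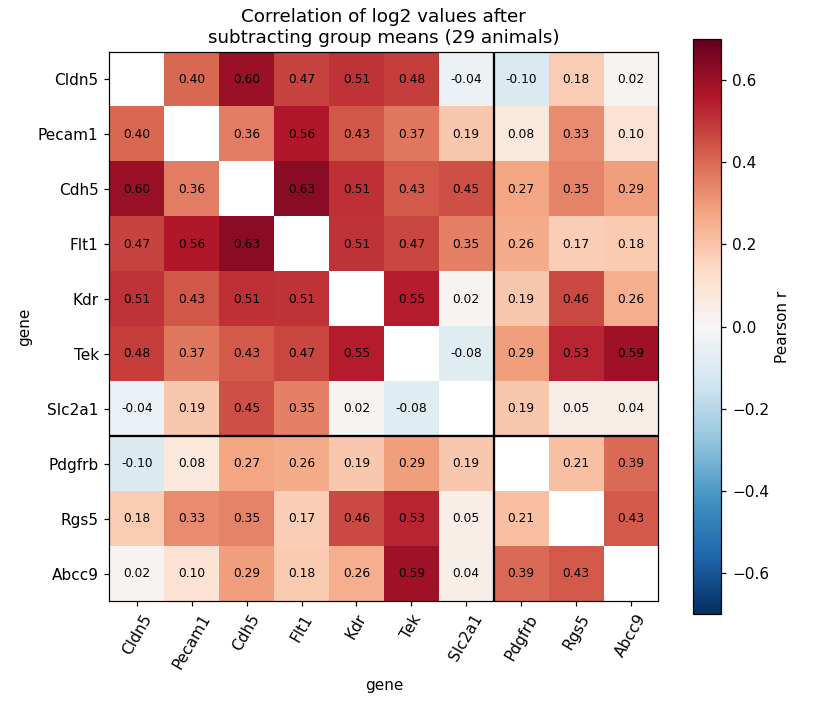
Pearson r (colour and number) between the log2 values of each pair of genes over 29 animals after subtraction of group means, with lines between the 7 endothelial and 3 pericyte genes. The block of endothelial genes other than Slc2a1 is the most strongly coloured, at 0.358 to 0.632, and Slc2a1 is near 0 with Cldn5, Kdr and Tek.

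The 8 genes outside the list whose residuals followed the endothelial score most closely were Slco1c1 (r = 0.763), Cxcl12 (0.762), Col4a1 (0.762), Mmp15 (0.756), Esam (0.754), Grip1os3 (0.751), Eng (0.744) and Ppp2r5a (0.726). Slco1c1 is a thyroid hormone transporter of the blood-brain barrier, Esam an endothelial adhesion molecule, Eng a co-receptor for transforming growth factor beta and Col4a1 a collagen of the basement membrane. Grip1os3 is annotated as an opposite-strand transcript, which unstranded reads do not separate from Grip1. By Spearman's rho 5 of the 8 were also among the first 8. The 5 genes closest to the pericyte score were Slc6a6 (0.744), Ptprb (0.725), Acap3 (0.722), Med25 (0.714) and Itih5 (0.697), of which 2 were also among the first 5 by rho. Ptprb is an endothelial phosphatase that acts on Tek.

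Other vascular genes were described through 8 lists of 137 different genes, 124 of which had values. None of the 124 was called at 4, 7, 14 or 42 dpi. At 28 dpi against sham 3 were called higher and 1 lower, when 4.15% of all genes were higher and 0.488% lower. In 28 against 14 dpi 7 were called higher and 2 lower, when 7.56% of all genes were higher and 4.22% lower. With no fold limit these counts were 16 and 13 against sham, and 20 and 22 against 14 dpi. Of all genes 11.9% were higher and 13% lower against sham, and 21% and 21.9% against 14 dpi. Of the genes called higher against sham, Lrp1 and Notch3 turned to -0.048 and -0.025 with all animals scaled to a common total, and Angpt2 stood at 0.086, against a median of -0.72 over all genes.

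Of the 24 measured other endothelial genes, 0 were called at 28 dpi against sham and 1, Ly6c1, was lower than at 14 dpi. Ly6c1, a surface antigen of endothelial cells and some leukocytes, had 9.8 ± 2.09 at 28 dpi, 15.4 ± 0.656 at 14 dpi and 14.3 ± 1.66 in sham. All 5 animals at 28 dpi lay below both other groups, and the log2 difference from 14 dpi was -0.65 (adjusted p 0.000123). Ly6c1 has a close paralog, Ly6c2, with which reads may be shared. S1pr1, the endothelial and glial receptor for sphingosine 1-phosphate, was at 59.1 ± 7.14 against 72.5 ± 4.03 in sham, a log2 difference of -0.30 (adjusted p 0.00771), and Cd34, a sialomucin of endothelial and progenitor cells, at 27.4 ± 2.01 against 21.8 ± 0.75 (0.32, adjusted p 0.0115). All 5 animals at 28 dpi lay below the sham range for S1pr1 and above it for Cd34, with differences under the fold limit. The median log2 difference of the list was -0.03 at 28 dpi against sham and -0.09 against 14 dpi.

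Of 24 measured barrier junction and transport genes, Lrp1 was the only one called. Lrp1, a large endocytic receptor that neurons and glia also make, was 749 ± 125 at 28 dpi, 381 ± 70 at 14 dpi and 448 ± 75 in sham. Its log2 difference was 0.74 from sham (adjusted p 0.00139) and 0.97 from 14 dpi (adjusted p 1.52e-05), and all 5 animals at 28 dpi lay above both groups. Mfsd2a, a lipid transporter that keeps transcytosis low in barrier endothelium, was at 24.5 ± 2.18 at 28 dpi against 33.3 ± 5.80 in sham, with all 5 animals below the sham range and a log2 difference of -0.43 (adjusted p 0.00605), under the fold limit. All 5 animals also lay below the sham range at 7 dpi (-0.31, adjusted p 0.791) and at 42 dpi (-0.33, adjusted p 0.148). Slc7a5, a transporter of large neutral amino acids, stood in the other direction, at 29.3 ± 2.74 at 28 dpi against 24.7 ± 2.5 in sham, a log2 difference of 0.24 (adjusted p 0.0237), and 4 of 5 animals exceeded every sham animal. With no fold limit 4 genes of the list were higher and 4 lower at 28 dpi against sham, as were 11.9% and 13% of all genes. The list's median differences at 28 dpi were 0.01 against sham and 0.03 against 14 dpi.

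Of 15 measured other pericyte genes, Notch3 and Cspg4 were called, both higher. Notch3, a receptor of mural cells, was 17.6 ± 3.23 at 28 dpi, 9.9 ± 1.08 at 14 dpi and 10.4 ± 2.25 in sham. The log2 difference was 0.74 from sham (adjusted p 0.00145) and 0.79 from 14 dpi (adjusted p 7.69e-05). Cspg4, or NG2, which oligodendrocyte precursors also carry, was 15.7 ± 2.96 at 28 dpi against 9.96 ± 1.17 at 14 dpi, a log2 difference of 0.62 (adjusted p 0.000227), and 12.7 ± 1.73 in sham (adjusted p 0.078). At 42 against 28 dpi the log2 difference was -0.50 for Notch3 (adjusted p 0.04999) and -0.50 for Cspg4 (adjusted p 0.0358), both under the fold limit. The median of this list was 0.24 against sham and 0.10 against 14 dpi. Of 8 measured arterial smooth muscle genes, Pln (phospholamban) was called in 28 against 14 dpi, at 3.66 ± 0.91 against 2.14 ± 0.59, and its log2 difference was 0.66 (adjusted p 0.00155). Against sham its difference at 28 dpi was 0.57 (adjusted p 0.0113), just under the fold limit, with all 5 animals above the sham range. Mylk, the myosin light chain kinase, differed from 14 dpi by 0.38 (adjusted p 0.00353) and from sham by 0.19 (adjusted p 0.163), and Des, or desmin, from sham by 0.31 (adjusted p 0.293).

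Of 23 measured vascular growth factors and receptors, Angpt2 was called. Angpt2, the angiopoietin that endothelial cells store and that modulates Tek, was 3.76 ± 0.902 at 28 dpi, 1.74 ± 0.518 at 14 dpi and 2.04 ± 0.478 in sham. All 5 animals at 28 dpi lay above both other groups, with log2 differences of 0.74 from sham (adjusted p 0.0055) and 0.93 from 14 dpi (adjusted p 0.000224). At 42 dpi all 5 animals also lay above the sham range, with a difference of 0.46 (adjusted p 0.23). Vegfa, the ligand of Flt1 and Kdr, was 38.5 ± 6.30 at 28 dpi against 48.4 ± 9.06 in sham, a log2 difference of -0.32 (adjusted p 0.0327), under the fold limit. Its difference from sham was -0.43 at 4 dpi, -0.43 at 7 dpi, where all 5 animals lay below the sham range, -0.30 at 14 dpi and -0.18 at 42 dpi, with adjusted p values of 0.216, 0.487, 0.392 and 0.457. Nrp2, a co-receptor for members of the VEGF family, was 51.6 ± 4.28 against 41.8 ± 1.63, a log2 difference of 0.30 (adjusted p 0.00703), with all 5 animals above the sham range.

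Of 12 genes of Wnt and Norrin signalling, Lrp5 was higher in 28 against 14 dpi, at 10.6 ± 1.66 against 6.42 ± 0.626, and Ndp, the ligand Norrin, lower, at 2.06 ± 0.82 against 3.50 ± 0.469. The log2 differences were 0.67 (adjusted p 0.000209) and -0.69 (adjusted p 0.000756). Of 8 measured genes of endothelial activation and leak, Vwf, the von Willebrand factor that endothelial cells store, was 12.4 ± 2.36 at 28 dpi, 6.28 ± 1.07 at 14 dpi and 8.16 ± 1.23 in sham. Its log2 difference from 14 dpi was 0.92 (adjusted p 4.41e-05), and all 5 animals lay above the 14 dpi group. Against sham Vwf differed by 0.51 at 4 dpi (adjusted p 0.378), 0.57 at 28 dpi (adjusted p 0.00815, under the fold limit) and 0.39 at 42 dpi (adjusted p 0.213), and on days 4 and 42 every animal exceeded the sham range. Ackr1, a chemokine receptor of venules, differed from sham by 0.48 at 7 dpi (adjusted p 0.667), 0.43 at 28 dpi (adjusted p 0.0217) and 0.60 at 42 dpi (adjusted p 0.0724), with all 5 animals above the sham range on days 7 and 42. Hmox1, a haem-degrading enzyme, differed by -0.39 at 28 dpi (adjusted p 0.0818). Of 11 measured hypoxia genes, Ankrd37 was lower at 28 dpi than in sham, at 0.94 ± 0.434 against 1.74 ± 0.152, and its log2 difference was -0.69 (adjusted p 0.0157), at values near the rounding step of 0.1. Without 28 dpi animal A3-3 the difference of Ankrd37 was -0.57 (adjusted p 0.0638), and with ribosomal RNA as a covariate -0.36 (adjusted p 0.366). Bnip3, a mitophagy gene that hypoxia induces, was at 60.1 ± 4.42 against 79.5 ± 8.82 in sham (-0.40, adjusted p 0.0016). Epas1, the hypoxia-inducible factor of endothelial cells and astrocytes, was at 77.8 ± 12.8 against 54.2 ± 3.65 (0.50, adjusted p 0.00411). Both stayed under the fold limit, and for both genes the 28 dpi and sham animals did not overlap.

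**Figure D4:**
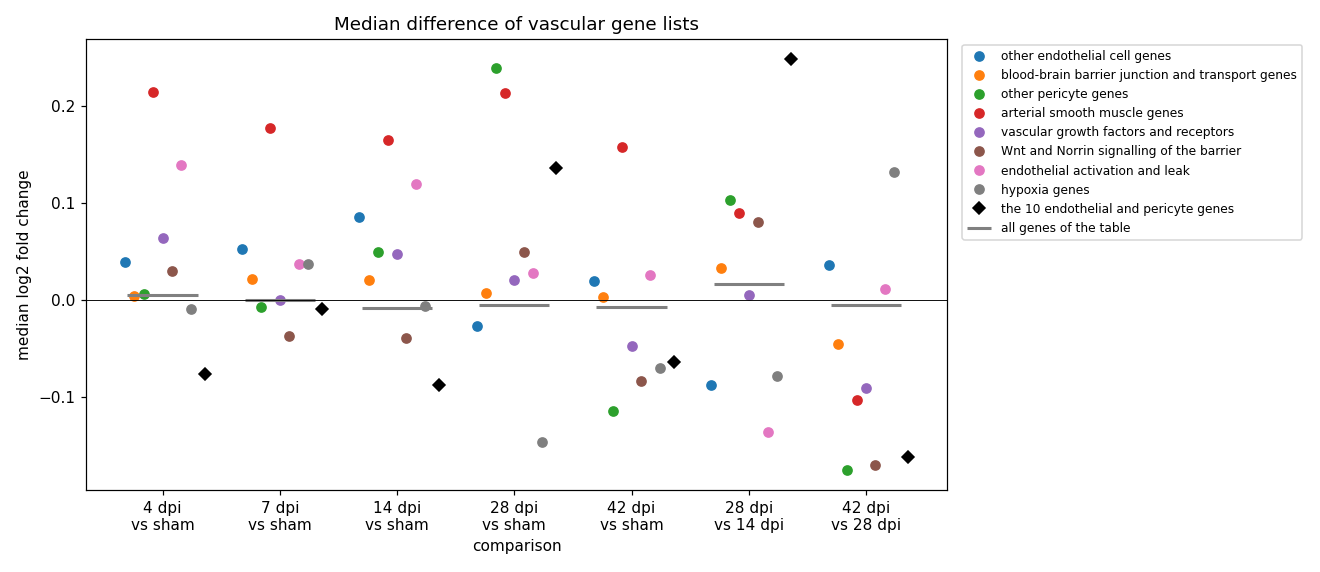
Median log2 fold change (vertical axis) of 8 vascular gene lists (coloured circles), of the 10 endothelial and pericyte genes (black diamonds) and of all genes (grey lines) in each of the 7 comparisons (horizontal axis). On this deposited scale the diamond stands at 0.25 in 28 against 14 dpi, a value that was -0.0063 with a common total.

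Genes of other cell types were read in the same samples. At 4 dpi the summed microglia markers ran from 120 to 183 against 95.4 to 108 in sham, and 1 of 6, Csf1r, was called, as was 1 of 6 astrocyte markers, Gfap. When single animals were left out, the adjusted p stayed under 0.05 in 7 of 9 fits for Csf1r (above it without 4 dpi animal A10-4 or A9-4) and in 3 of 9 for Gfap (up to 0.477, without A10-4). All 6 microglia markers were above sham at 4, 7 and 14 dpi, and their sums at 14 dpi ran from 110 to 144. At 28 dpi the 6 oligodendrocyte markers were all lower than in sham, with sums of 4476 to 6587 against 6223 to 9261, and the neuron sums ran from 1895 to 2422 against 2190 to 2685, with 0 of either list called. Of the oligodendrocyte markers, 0 of 6 were above sham at 4, 7 or 42 dpi, and 1 of 6 at 14 dpi. Against 14 dpi, where Abcc9, Flt1, Kdr and Cdh5 were lower, all 6 microglia markers (median log2 difference -0.38) and all 6 oligodendrocyte markers (median -0.34) were below 0 at 28 dpi, with none called. The sums of these groups did not overlap for neurons (2446 to 2573 at 14 dpi) or astrocytes (2835 to 3300 at 28 dpi and 2355 to 2674 at 14 dpi). Within the neuron and astrocyte lists the markers went both ways, with 3 of 7 neuron markers (median log2 difference -0.05) and 3 of 6 astrocyte markers (median -0.02) above 0. The summed fibroblast and meninges markers ran from 194 to 277 at 28 dpi, 305 to 357 at 14 dpi, without overlap, and 214 to 328 in sham, with Col1a1 called higher at 28 dpi against sham and Ptgds lower against 14 dpi, 1 of 8 each. This list too went both ways at 28 dpi, with 4 of 8 markers above 0 against 14 dpi (median log2 difference 0.04). Against sham 5 of 8 were above 0 (median 0.13). The call of Col1a1 rested on single animals, with an adjusted p under 0.05 in 3 of 10 fits that each left out 1 animal, while Ptgds kept it in 10 of 10. Sums of 5 measured red blood cell markers overlapped in all groups (5.6 to 32.8), after perfusion with Ringer's solution, and 1 of them, Alas2, was called higher at 28 dpi against both groups. No marker on these lists was at 0 in every animal of a group. The summed endothelial genes ran from 133 to 203 at 28 dpi, 128 to 164 at 14 dpi and 143 to 166 in sham. The part of these other cell types in the vascular values was not tested.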

How the data were processed

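Total RNA of the intermediate laminae was ribosome-depleted and sequenced from 30 mice in 6 groups, taken from the labels, of which 29 have values (the group labelled Ctrl was read as sham from the study's methods). The authors quantified reads on mm10 with SALMON and Tximport, normalised them with edgeR 3.14.0 under R 3.4.1 and removed low genes. The deposited values are a score, normalised CPM rounded to 0.1, not counts, so the depth is unknown and precision rests on the spread between animals. The authors' fold changes, p values and calls in the same table were not used.

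Values were tested as log2(value + 0.5) with limma 3.58.1 (R 4.3.3, trend, 1 fit over 6 groups, Benjamini-Hochberg over 16995 genes). Intervals and SEs come from that fit. A call needed an adjusted p under 0.05 and more than 1.5-fold. The study's methods word the fold limit on the log2 scale instead, and that stricter limit was an alternative. The small pseudocount understates the change of low genes. Other steps used Python 3.11.15, numpy 2.4.6, pandas 2.3.3 and scipy 1.17.1, and the tests were tested on simulated data. Lengths, overlaps and exons came from GENCODE M21, and positions from the deposited table.

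Besides the 10 genes, up to 6 called genes of each list were eligible for naming, those with the smallest adjusted p first, and where fewer than 2 were called, the 2 with the smallest p at 28 dpi against sham. The genes and lists were chosen with earlier results of these data known. Alternatives were other pseudocounts, a filter on low values, quantile normalisation, median centring, rescaling to a common sum, ribosomal RNA as a covariate, no trend, fits of 2 groups, the labelled unit as a block, other limits and leaving out each animal. Rescaling without Rn18s-rs5 and leaving out 5 animals with Rn18s-rs5 above 400000 were chosen after seeing the data.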

Additional observations from a re-analysis of the deposited data

Results flagged for a closer look

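Among the 60 combinations of gene and group, 6 held an animal far from the others by Dixon's criterion, where chance flags about 1 in 20, or 3 of 60. At 14 dpi animal A6-3 was the highest for Pecam1 (17.0, others 12.5 to 12.8) and for Flt1 (49.0, others 33.5 to 37.2). Animal A3-3 was the highest for Tek at 28 dpi (16.1, others 11.6 to 12.9). At 42 dpi animal A1-2 was the highest for Tek (16.2, others 10.8 to 11.8). At 4 dpi animal A10-1 was the lowest for Pdgfrb (6.6, others 9.5 to 9.8), and at 7 dpi animal A7-2 was the highest for Abcc9 (12.7, others 10.2 to 10.9). A6-3, A3-3 and A7-2 also had the highest Rn18s-rs5 value of their groups, 817780, 779160 and 116302, and the part of ribosomal RNA in these values was not tested.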

How the results depend on the processing

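At 4, 7, 14 and 42 dpi against sham and at 42 against 28 dpi the count of endothelial and pericyte genes past both limits stayed at 0 under every alternative run. At 28 dpi against sham it was 6, all lower, with every animal at the same sum, when 65.2% of all genes were called. It was 2, both lower, with the same sum without Rn18s-rs5, against 30% of all genes. Without the 5 animals with Rn18s-rs5 above 400000 it was 1 (Cdh5, higher), against 3.78% of all genes. With no fold limit it was 2, against 24.9% of all genes. It ranged from 0 to 1 when single animals were left out, against 2.43% to 6.72% of all genes. In 28 against 14 dpi it was 4 with no fold limit, against 43% of all genes. The F test found 1 gene with ribosomal RNA as a covariate and 1 without those 5 animals, against 20.5% and 20.7% of all genes. It found from 1 to 5 when single animals were left out, against 23.1% to 33% of all genes. With every animal at the same sum, where the median of all genes shifted to -0.72, the 28 dpi difference from sham turned to -0.67 for Cldn5, -0.73 for Pecam1, -0.61 for Kdr, -0.63 for Abcc9, -0.091 for Col1a1, -0.025 for Notch3 and -0.048 for Lrp1. That rescaling changed the sign of 24 of the 70 differences of the 10 genes, rescaling without Rn18s-rs5 16, the covariate 2 and leaving out the 5 animals 2. It was 0 under the 8 other alternatives that keep all animals. The cause was not tested. The labelled unit as a random block had a correlation of -0.0441 and changed no call of the 10 genes, while over all genes it moved the calls from 16 to 25 at 4 dpi against sham, from 4 to 39 at 42 dpi against sham and from 38 to 88 at 42 against 28 dpi. No paired analysis was possible because no animal number occurs in more than 1 group. Unit A3 alone spans 2 groups, 28 and 42 dpi, and no other unit pairs them. The depth is unknown, and values are rounded to 0.1, which is coarse for genes near 1.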
